A study of Mus musculus with 32 samples.

Results

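MapR maps R-loops, stretches where an RNA pairs with one DNA strand and the other strand is displaced. It releases the DNA near them with a fusion of inactive RNase H and micrococcal nuclease, here called RNH. The regions described here are narrow MapR peaks that all 4 RNH libraries of mouse embryonic stem cells hold. Each is a peak of wild-type (WT) replicate 1 under 1000 bp wide that overlaps by at least 1 bp a peak of WT replicate 2, H1-TKO replicate 1 and H1-TKO replicate 2, and no peak of either nuclease-only control. The regions were thus chosen by peak calls of these same libraries and by width, measured values that carry no test here. The rule found 1277 of the 22336 peaks of WT replicate 1, or 6.11% of its 20894 narrow peaks outside control peaks. Presence in the 4 lists and a small width in WT replicate 1 are therefore not findings. Another 308 regions in all 4 lists were 1000 bp or wider, and 322 narrow peaks in all 4 lists were left out for a control peak.

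The series of 32 samples compared WT cells with H1-TKO cells, which carry deletions of 3 linker histone H1 genes, Hist1h1c, Hist1h1d and Hist1h1e. Both genotypes were grown in serum with LIF, and the labels name no other agent, no clone and no relation between replicates and cultures. Values came from 2 GST-RH-MNase libraries and 1 GST-MNase control library per genotype, and from a table of chromatin-enriched RNA (cheRNA) made from 3 samples per genotype. The peak lists held 22336 and 6612 peaks in WT replicates 1 and 2, 25392 and 6458 in TKO replicates 1 and 2, and 568 and 582 in the WT and TKO controls. Read depth is unknown, and the replicates of a genotype may differ only technically.

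As background, R-loops form readily where a new transcript leaves a G-rich non-template strand behind, as downstream of CpG-island promoters, and RNase H enzymes and helicases remove them. Genes of small nuclear RNAs, which are short and heavily transcribed, and tandem repeats with a G-rich strand are other places where hybrids can form. Linker histone H1 binds nucleosomes where DNA enters and leaves them and compacts chromatin.

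Genes of spliceosomal RNAs and of the nucleolar RNA U3 were among the places with a region, and the DNA upstream of the U2 genes is shown because the 6 U2 genes share an element there. Regions lay within 1 kb of the start of 6 of 34 annotated U2 loci, 7 of 123 U1 loci and 4 of 10 U3 loci. The share over all annotated genes was 2.31%. Other small RNA loci had few regions, with 4 of 1385 loci outside the named classes (0.289%). The whole family of small RNA genes gave 28 of 2959 (0.946%), below the share over all genes. Among genes with any WT replicate 1 peak, 21.7% of the 129 small RNA genes had a region, against 10.4% of all genes. This share counts genes whose region lies nearest to another gene's start, as Gm25794 at Bsg, Gm24019 at Med16 and Gm26306 at Slc37a4. It also counts several snoRNA genes that share the same region at Gas5. The next lines give the DNA 5′ to 3′ on the gene's strand at the distal element of the 6 U2 genes, in GRCm38.p6 (mm10) from RefSeq, with the octamer ATGCAAAT and the GC box GGGCGG in capitals. The genes are Gm25939 (chr1:72254760-72254795, plus strand), Gm23444 (chr11:83271251-83271286, plus), LOC115487916 (chr11:101627126-101627161, plus), Gm24950 (chr11:101641499-101641534, plus), Gm23971 (chr11:101646146-101646181, minus) and Rnu2-10 (chr11:101657989-101658024, plus).
Gm25939: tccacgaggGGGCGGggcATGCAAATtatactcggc
LOC115487916: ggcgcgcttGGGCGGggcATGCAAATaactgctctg
Gm23444: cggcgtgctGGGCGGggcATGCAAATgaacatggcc
Gm24950: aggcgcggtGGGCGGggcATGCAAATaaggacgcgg
Gm23971: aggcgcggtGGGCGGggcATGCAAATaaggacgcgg
Rnu2-10: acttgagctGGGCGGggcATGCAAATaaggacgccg
The octamer began between 222 and 233 bases before the start in all 6 copies, and the GC box began 9 bases before the octamer. The octamer is known as the distal element of small nuclear RNA promoters and is bound by POU-domain factors. As background, U2 loci of mammalian genomes include retrotransposed copies without their own promoter. Of the 34 annotated U2 loci 11 held the octamer on either strand within 300 bases upstream. A WT replicate 1 peak lay within 1 kb of the start of 12 U2 loci, 11 of them among those with the octamer. In the 300 bp around the WT replicate 1 summit the octamer was in 1.80% of the 1277 regions and 1.45% of all WT replicate 1 peaks outside control peaks.

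None of the 7 U1 and 4 U3 loci held the octamer within 300 bases upstream. The next lines give the 150 bases before the start of Rnu1b1 (chr3:96360118-96360267, minus strand), Rnu1b6 (chr3:96460190-96460339, minus) and Rnu3b1 (chr11:87443087-87443236, plus), with GGGCGG in capitals, to show the promoter DNA near these summits, several of which lie outside the stretch printed.
Rnu1b1: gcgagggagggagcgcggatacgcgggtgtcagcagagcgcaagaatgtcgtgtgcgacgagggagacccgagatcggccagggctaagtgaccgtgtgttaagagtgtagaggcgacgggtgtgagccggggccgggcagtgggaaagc
Rnu1b6: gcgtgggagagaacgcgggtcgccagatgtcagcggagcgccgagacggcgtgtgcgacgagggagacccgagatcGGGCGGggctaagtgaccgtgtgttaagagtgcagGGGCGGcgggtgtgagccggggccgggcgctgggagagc
Rnu3b1: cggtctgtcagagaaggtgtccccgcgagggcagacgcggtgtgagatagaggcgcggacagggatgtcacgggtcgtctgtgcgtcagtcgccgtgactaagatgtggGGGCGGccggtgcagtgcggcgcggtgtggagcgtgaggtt
The 250 bases upstream of the 4 U3 genes Rnu3b1, Rnu3b2, Rnu3b3 and Rnu3b4 were identical in all 6 pairs. Over the 7 U1 genes the ungapped identity of the same stretch ranged from 32.4% to 100%, with a median of 70.8%. Reads from such copies cannot be placed with certainty. The 31 bases at the WT replicate 1 summit, called the summit word here, occurred 4 times in the genome at Rnu3b1, Rnu3b2 and Rnu3b4. At Rnu3b3 it occurred 1 time, at the U1 gene Rnu1b6 3 times and at the U1 gene Gm26444 22 times. The part of copy number in the U1 and U3 peaks was not tested.

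Away from promoters, several of the regions with the highest enrichment were tandem repeats inside introns. Regions were ranked by their lowest within-list percentile over the 4 libraries, where the percentile is a peak's rank by fold enrichment among the peaks of its own library. The top 5 of the 1277 were all intronic, among them those in Stau2, Pkp4, Zfp473 and Pxylp1. The next lines show 3 of these and 2 further tandem repeats as examples, chosen after their values were seen, by 150 bases centred on the WT replicate 1 summit on the G-richer strand, with runs of 3 or more G in capitals. They come from Stau2 (chr1:16342920-16343069, minus strand), Pkp4 (chr2:59252969-59253118, plus), Zfp473 (chr7:44738842-44738991, plus), Kbtbd12 (chr6:88577980-88578129, plus) and Miga1 (chr3:152314757-152314906, minus).
Stau2: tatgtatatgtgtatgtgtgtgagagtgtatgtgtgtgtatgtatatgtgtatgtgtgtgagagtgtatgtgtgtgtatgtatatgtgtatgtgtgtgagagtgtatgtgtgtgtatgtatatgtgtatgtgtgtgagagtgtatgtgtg
Pkp4: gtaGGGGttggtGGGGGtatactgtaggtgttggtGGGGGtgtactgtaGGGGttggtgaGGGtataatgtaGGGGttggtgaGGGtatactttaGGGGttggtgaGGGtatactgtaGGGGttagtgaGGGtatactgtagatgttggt
Zfp473: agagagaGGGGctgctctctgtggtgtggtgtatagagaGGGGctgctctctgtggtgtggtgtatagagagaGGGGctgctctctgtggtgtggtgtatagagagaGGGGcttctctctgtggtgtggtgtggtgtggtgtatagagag
Kbtbd12: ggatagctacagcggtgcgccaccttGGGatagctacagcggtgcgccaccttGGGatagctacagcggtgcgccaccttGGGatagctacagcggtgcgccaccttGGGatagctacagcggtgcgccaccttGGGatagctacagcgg
Miga1: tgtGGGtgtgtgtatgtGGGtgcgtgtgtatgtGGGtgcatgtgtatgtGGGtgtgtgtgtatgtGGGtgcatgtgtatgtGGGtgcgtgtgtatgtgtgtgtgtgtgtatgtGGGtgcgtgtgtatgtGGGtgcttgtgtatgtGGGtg
A 300 bp window was called a tandem repeat where at least 80% of its bases matched the base 1 period further on, for some period from 2 to 100 bases. The match was 87.4% at a period of 38 bases in Stau2, 89.5% at 23 in Pkp4, 88.7% at 16 in Miga1 and 100% at 27 in Kbtbd12. Zfp473, with 70.3% at 34 bases, stayed below the limit. The Stau2 strand holds no run of 3 G, and its window held 108 cytosines and 1 guanine on the plus strand.

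Promoters made up most of the regions, and the next lines show the 200 bases upstream of the start for the regions of Gpr155 and Cul4b, 2 of the promoters with the highest enrichment, and of Rnf139 and Kdm2b, 2 of those with the highest GC content. Capitals mark the Sp and Klf box GGGCGG, the CCAAT box, the cAMP response element TGACGTCA, the Ets core GGAAGT and the NRF1 core GCGCATGC on either strand, and the gene's strand is printed. The stretches are Gpr155 (chr2:73386573-73386772, minus strand), Cul4b (chrX:38564663-38564862, minus), Rnf139 (chr15:58889029-58889228, plus) and Kdm2b (chr5:122900356-122900555, minus).
Gpr155: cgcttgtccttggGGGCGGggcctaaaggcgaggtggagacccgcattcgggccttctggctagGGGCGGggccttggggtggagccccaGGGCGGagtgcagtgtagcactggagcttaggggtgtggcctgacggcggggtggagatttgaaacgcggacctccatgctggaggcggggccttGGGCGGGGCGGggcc
Cul4b: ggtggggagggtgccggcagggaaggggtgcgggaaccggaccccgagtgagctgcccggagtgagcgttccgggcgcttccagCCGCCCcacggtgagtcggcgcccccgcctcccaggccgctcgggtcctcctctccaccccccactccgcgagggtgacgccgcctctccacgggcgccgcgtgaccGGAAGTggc
Rnf139: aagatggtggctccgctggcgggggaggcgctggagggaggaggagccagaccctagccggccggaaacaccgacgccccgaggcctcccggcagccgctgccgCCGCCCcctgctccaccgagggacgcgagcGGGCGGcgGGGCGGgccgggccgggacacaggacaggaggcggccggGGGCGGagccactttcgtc
Kdm2b: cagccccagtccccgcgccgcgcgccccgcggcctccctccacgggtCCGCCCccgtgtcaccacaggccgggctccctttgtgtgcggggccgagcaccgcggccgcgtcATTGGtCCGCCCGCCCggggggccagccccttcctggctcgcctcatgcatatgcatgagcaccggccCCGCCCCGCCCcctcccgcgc
Gpr155 encodes a lysosomal membrane protein, Cul4b a scaffold of ubiquitin ligases, Rnf139 a ubiquitin ligase of the endoplasmic reticulum, and Kdm2b a CpG-island-binding histone demethylase.

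All 4 libraries held the regions, but not with peaks of the same size. The median peak width over the 1277 regions was 690 bp in WT replicate 1, 373 bp in WT replicate 2, 655 bp in TKO replicate 1 and 297 bp in TKO replicate 2. The width limit of the rule applies to WT replicate 1 alone. The whole lists differed in the same way, with median widths of 470, 306, 445 and 234 bp, so width followed the replicate number and not the genotype. In TKO replicate 1 the peak was 1000 bp or wider at 127 regions, against 6 in WT replicate 2 and 1 in TKO replicate 2. The regions held 19.4% of the peaks of WT replicate 2 and 20.3% of those of TKO replicate 2, but 5.72% and 5.17% of those of WT and TKO replicate 1.

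Enrichment was moderate. Fold enrichment is the authors' value at the summit over the peak caller's local background, and it is used here only to place a peak within its own list. The median was 4.15 in WT replicate 1, 4.51 in WT replicate 2, 4.03 in TKO replicate 1 and 4.84 in TKO replicate 2, beside list medians of 3.74, 4.34, 3.80 and 4.67. The median percentile was 67.6, 59.6, 59.7 and 57.0, in the same order. A percentile above 90 was held by 244 of the regions in WT replicate 1, by 144 in WT replicate 2, by 185 in TKO replicate 1 and by 119 in TKO replicate 2. Since membership asks for a call in the 2 short lists, these values describe the choice and support nothing further.

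**Figure D1:**
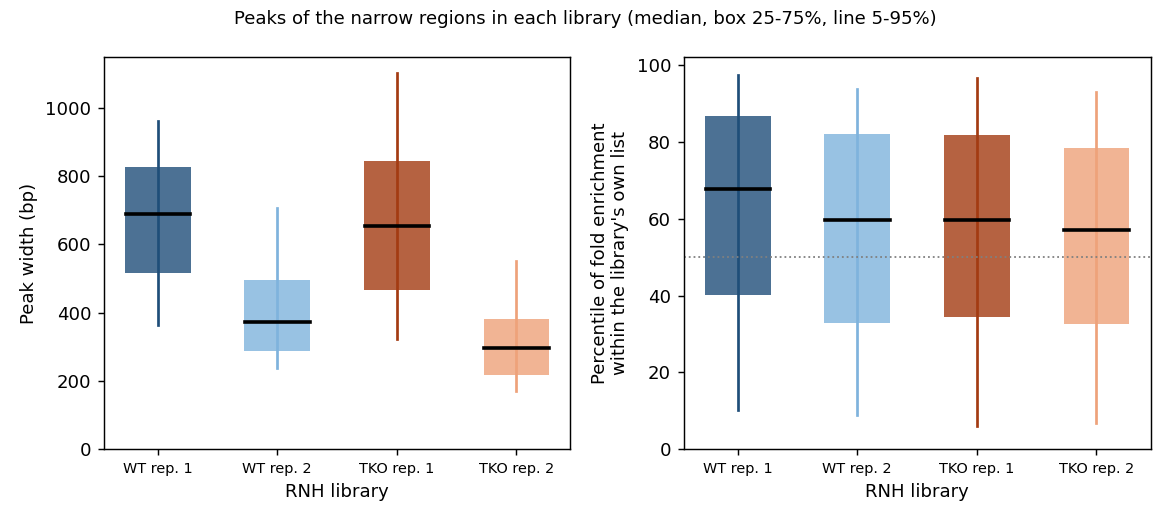
Peak width (bp) and within-list percentile of fold enrichment of the 1277 regions in each RNH library, with the median, a box from the 25th to the 75th and a line from the 5th to the 95th percentile. Widths are larger in both replicate 1 libraries (medians 690 and 655 bp) than in both replicate 2 libraries (373 and 297 bp), while the percentiles spread over most of each list.

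The width limit fell within a run of promoters. The widest regions kept lay nearest to starts of Tle4 (999 bp), Rap2a (998 bp), 2410017I17Rik (998 bp), Fubp3 (998 bp) and Amz2 (997 bp). The narrowest left out lay at Aldh9a1 (1000 bp), Mcee (1000 bp), Atl3 (1001 bp), 1700016H03Rik (1001 bp) and Ap2a1 (1001 bp). At the other end, regions of 315 bp lay at the promoters of Rtn4, Nf1, Jpt1 and Jarid2, and in an intron nearest to the start of the pseudogene Gm48164. Nf1 encodes the Ras regulator neurofibromin and Jarid2 a partner of Polycomb repressive complex 2. The folds in WT replicates 1 and 2 and TKO replicates 1 and 2 were 3.04, 4.42, 3.85 and 3.59 at Nf1 and 3.15, 5.82, 3.45 and 4.30 at Jarid2. The percentiles ran from 5.20 to 55.9 at Nf1 and from 19.0 to 91.0 at Jarid2.

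Summits within a region lay closest between libraries of the same replicate number. The median distance was 67 bp between WT and TKO replicate 1 and 89 bp between WT and TKO replicate 2. Within a genotype it was 104 bp between the WT replicates and 143 bp between the TKO replicates. The remaining pairs gave 138 bp (WT replicate 1 and TKO replicate 2) and 112 bp (WT replicate 2 and TKO replicate 1). Summits lay within 100 bp of each other at 62.6% of regions for WT and TKO replicate 1, and at 34.7% for the TKO replicates. Overlap of the peaks is part of the rule and bounds these distances, and whether the replicate number marks a batch is not stated in the labels.

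Of the 1277 regions, 965 (75.6%, exact 95% binomial interval 73.1 to 77.9, counting error only) lay within 1 kb of an annotated transcription start. The distance was taken from the edge of the peak, so a summit can lie further away. Another 175 (13.7%) were intergenic, 117 (9.16%) intronic and 20 (1.57%) exonic. Promoters held 49.3% of all 21929 WT replicate 1 peaks outside control peaks and 47.1% of the 19617 narrow peaks that were not in all 4 lists. They held 57.6% of the 9142 narrow peaks found in replicate 1 of both genotypes only, and 84.7% of the 308 broad regions in all 4 lists. The narrow regions therefore lay between the broad regions and the rest of the list. The nearest start belonged to a protein-coding gene at 864 of the 965 promoters (89.5%), to a lincRNA at 24, to an antisense RNA at 19 and to an snRNA at 14. Starts on both strands lay within 1 kb of the summit at 264 promoters (27.4%), against 21.7% of all promoter peaks and 31.8% of the broad promoter regions.

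Base composition followed location. The median GC content of the 300 bp around the summit was 63.7% over the regions, 61.0% over all peaks outside control peaks and 65.7% over the broad regions. At promoters alone the median was 65.3% in the regions and 65.3% in all peaks, and elsewhere it was 55.7% in both. The observed over expected CpG ratio was likewise 0.774 at promoters in both sets, and 0.340 against 0.364 elsewhere. At the same kind of location the regions and all peaks thus had the same median GC content.

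**Figure D2:**
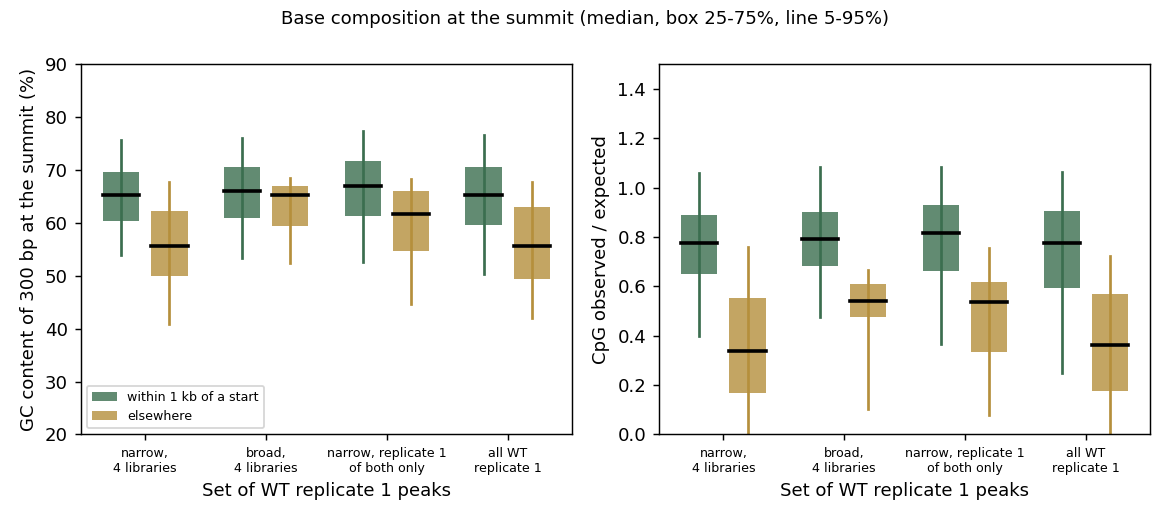
GC content (%) and observed over expected CpG ratio of the 300 bp around the WT replicate 1 summit in 4 sets of WT replicate 1 peaks, split by location within 1 kb of a start (green) or elsewhere (ochre), with the median, a box from the 25th to the 75th and a line from the 5th to the 95th percentile. Within each kind of location the narrow regions have the same median GC content as all peaks (65.3% at promoters, 55.7% elsewhere).

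The extremes of composition were of different kinds. The highest GC contents were at the promoters of Rnf139 (82.7%), the antisense RNA gene Gm11592 (82.0%), Kdm2b (81.3%) and Zfp384 (80.3%). Among the lowest were intergenic regions nearest to Gm29277 (35.7%), Gm23215 (36.0%) and Gm14919 (36.0%). The fold at Rnf139 was 4.00, 4.65, 4.22 and 4.57 in WT replicates 1 and 2 and TKO replicates 1 and 2. The fold in the intergenic region nearest to Gm23215 was 3.60, 3.44, 3.86 and 3.62, below that of Rnf139 in all 4 libraries.

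Sequence that can fold into a G-quadruplex, taken as 4 runs of at least 3 G or C with loops of 1 to 7 bases, was in the summit window of 360 regions (28.2%, interval 25.7 to 30.7). The share over all WT replicate 1 peaks outside control peaks was 19.0%. At promoters it was 31.5% against 28.3%, and 37.5% in the broad regions. Away from promoters it was 17.9% against 9.90%, and 4.26% in the broad regions. The excess over the whole list was thus smaller within promoters than away from them.

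Promoter motifs were searched on both strands of the same windows. GGGCGG, the box of Sp and Klf factors, was in 794 regions (62.2%) against 45.6% of all peaks, and at promoters in 74.3% against 62.4%. CCAAT, the box of NF-Y, was at 35.3% of promoter regions against 26.6%. AGGGGGC, a core of CTCF sites, was at 21.04% against 15.0%. TGACGTCA, the cAMP response element bound by CREB and ATF factors, was at 3.21% against 1.80%, and in 32 regions (2.51%) against 1.04% overall. GCGCATGC, the core of NRF1 sites, was at 4.25% of promoter regions against 3.18%, and TCGCGAGA at 2.07% against 1.25%. GATGGCGG, a YY1 core, was at 4.56% against 3.90%, and ACTACAA, a ZNF143 core, at 2.69% against 2.16%. GGAAGT, an Ets core, was at 18.7% against 19.7%, and TATAAA at 3.52% against 3.05%. Away from promoters TTCNAGAA, the core of heat shock elements, was in 10.9% of regions against 16.3% of all peaks there. CACACACA and GAGAGAGA were in 3.99% and 2.19% of all 1277 regions, against 4.10% and 2.51% of all peaks. At promoters of the broad regions the Sp and Klf box was at 76.6% and the NF-Y box at 41.4%. The CTCF core was at 20.7% there and the ZNF143 core at 3.83%. The excess of these motifs over all promoter peaks was thus not particular to the narrow regions. The cAMP response element (0.766%), the NRF1 core (3.07%) and the YY1 core (2.68%) were less frequent at broad promoters than at all promoter peaks. The motifs searched share bases with the GC content of a window and overlap each other, and a match is a description of letters only.

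The cAMP response elements were searched only around the summit, which bounds how far from the start they can lie. Of the 32 regions 31 were promoters, 16 of them with the element within 100 bp upstream of the start, and the median position was 70 bp upstream (-70). The next lines show the element in capitals with its neighbours at 5 of the most enriched of these, on the gene's strand: Dcaf11 (chr14:55560485-55560512, plus), Chgb (chr2:132781560-132781587, plus), Rap2a (chr14:120477877-120477904, plus), Osbpl9 (chr4:109202236-109202263, minus) and Paqr3 (chr5:97111614-97111641, minus).
Dcaf11: gagcgtcgagTGACGTCAgcaggcctgg
Chgb: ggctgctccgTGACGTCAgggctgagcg
Rap2a: ggcgggccggTGACGTCAtcgggcgcgg
Osbpl9: tataggcgacTGACGTCAggccgtttgt
Paqr3: ttcggcgcgcTGACGTCAgaccaggctg
The element lay at -35 in Dcaf11, a substrate receptor of CUL4 ubiquitin ligases, at -33 in Osbpl9, at -55 in Paqr3, at -553 in Rap2a and at 296 in Chgb, the gene of the secretory granule protein chromogranin B. The folds at Dcaf11 were 5.85, 7.95, 6.06 and 6.34 and at Chgb 6.16, 5.20, 6.77 and 6.97, in WT replicates 1 and 2 and TKO replicates 1 and 2. Positions are in bp from the start, with negative values upstream.

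Where starts within reach lay on 1 strand only, summits could be placed relative to the direction of transcription. Over 652 such coding promoters the WT replicate 1 summit lay at a median of -13.5 bp from the start, with 54.9% upstream. In all peaks outside control peaks the median was 16 bp with 44.5% upstream (7555 promoters), and in the narrow peaks of replicate 1 of both genotypes only it was 27 bp with 41.3% upstream. The broad regions gave -22 bp and 56.2%. The other libraries gave medians of -81.5 bp in WT replicate 2, -7.5 bp in TKO replicate 1 and -111 bp in TKO replicate 2, with 63.2%, 51.4% and 71.2% upstream. Both replicate 2 libraries had their summits further upstream than both replicate 1 libraries.

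**Figure D3:**
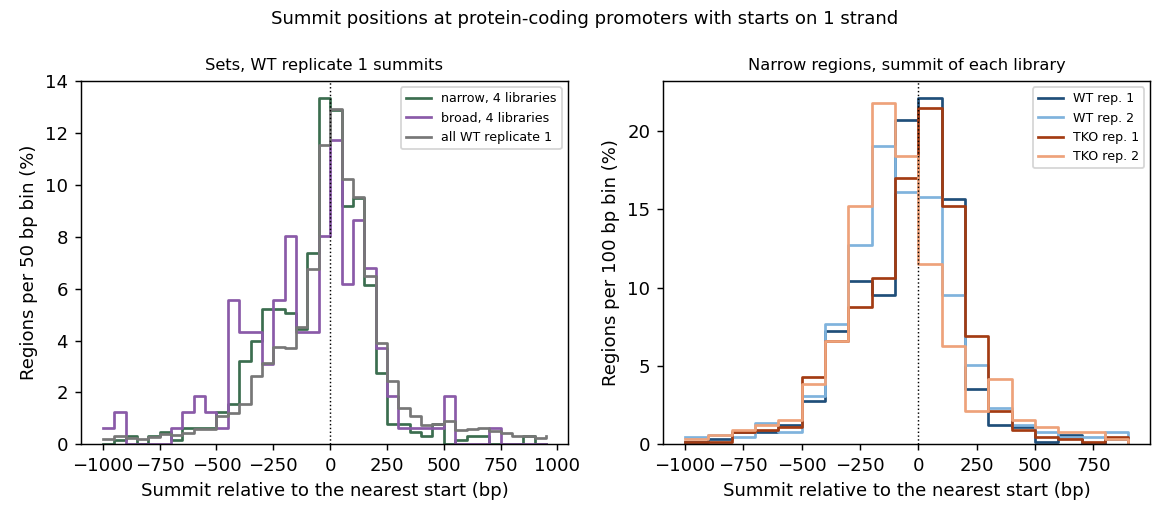
Share of regions by distance of the summit from the nearest start (bp) at protein-coding promoters with starts on 1 strand, by set of WT replicate 1 peaks at the left and by library over the narrow regions at the right. The narrow regions' median is -13.5 bp against 16 bp in all peaks, and the replicate 2 libraries peak further upstream (-81.5 and -111 bp).

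The DNA downstream of these starts was G-rich on the non-template strand. GC skew, the difference of G and C over their sum, had a median of 0.100 over the first 300 bases downstream, and it was positive at 75.2% of the 652 promoters. The median was 0.0693 (68.5% positive) in all peaks outside control peaks, 0.0738 in the broad regions and 0.0553 (64.8% positive) over all protein-coding gene starts. Over the 300 bases upstream the median skew of the regions was 0.0114. The skew was thus larger downstream, although the summits in all 4 libraries had medians upstream of the start.

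At the small RNA genes the libraries divided the other way. At the 6 U2 genes the WT replicate 1 summits lay from -120 to -6 bp (median -96) and the TKO replicate 1 summits from -210 to -40 bp (median -146). WT replicate 2 summits lay from 149 to 648 bp (median 323) and TKO replicate 2 summits from 123 to 368 bp (median 315). Both replicate 1 libraries were upstream of the start at all 6 genes, and both replicate 2 libraries downstream at all 6. A U2 gene is 191 bases long as annotated at Gm25939, so most replicate 2 summits lay beyond the RNA's end. At the 4 U3 genes the summits ran from -251 to -2 bp, -56 to 251 bp, -112 to -28 bp and 66 to 176 bp in WT replicates 1 and 2 and TKO replicates 1 and 2. At the 7 U1 genes the replicate 1 summits were upstream at 6 (WT) and 7 (TKO) genes, and the replicate 2 summits at 3 (WT) and 4 (TKO).

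**Figure D4:**
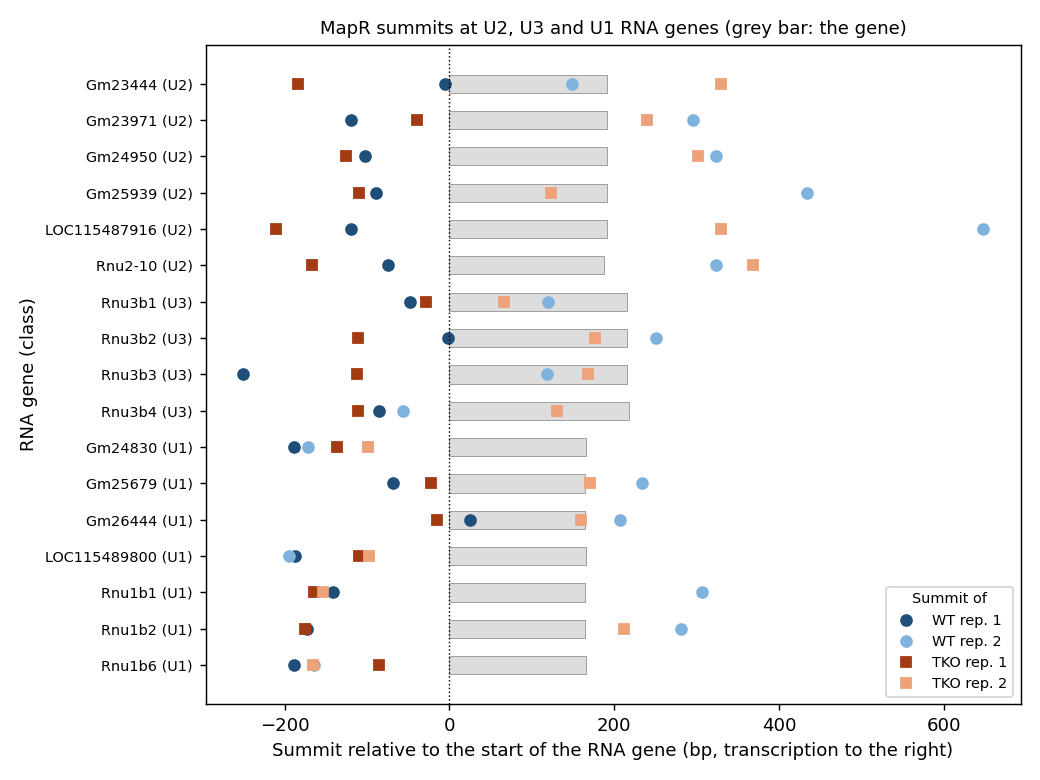
Summit of each RNH library relative to the start of the U2, U3 and U1 RNA genes with a region (bp, transcription to the right), 1 line per gene with the gene as a grey bar. At the 6 U2 genes both replicate 1 summits lie upstream and both replicate 2 summits downstream of the start.

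Enrichment at these genes spanned much of each list. Among the U2 genes the percentiles of Gm25939 were 86.3, 59.9, 78.7 and 77.4 in WT replicates 1 and 2 and TKO replicates 1 and 2, while those of Gm24950 were 48.2, 7.34, 30.7 and 3.00. U2 folds ran from 3.30 to 4.85 in WT replicate 1, 3.35 to 4.98 in WT replicate 2, 2.74 to 4.62 in TKO replicate 1 and 3.43 to 5.81 in TKO replicate 2. Rnu2-10 had folds of 4.56, 4.91, 4.24 and 5.81, and Rnu1b1 of 4.95, 4.69, 4.60 and 5.66, in the same order. Both genes lay in the upper part of every list. Rpph1, the RNA subunit of RNase P that trims tRNA precursors, stood higher in its lists, with folds of 5.49, 9.55, 5.04 and 7.62 and percentiles from 86.3 to 97.1. The same region also lies at the promoter of Ccnb1ip1, whose start is the nearest to the WT replicate 1 summit. A region lay within 1 kb of 1 of 10 U5 loci, 4 of 713 U6 loci, 13 of 403 tRNA loci, 0 of 12 U4 loci and 0 of 72 U7 loci. Several tRNA loci shared a region, as at those nearest to Cfap126 and 1700064H15Rik, so the regions are fewer than the 13 loci. The U6 locus Gm24381 shares its region with the promoter of Ctnnbip1, and the WT replicate 1 summit lay at -921 bp from the U6 start. Its folds were 4.60, 5.10, 4.87 and 6.22.

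The strongest regions were picked by their lowest percentile over the 4 libraries, so their high ranks in every library follow from the choice. Stau2, whose product binds double-stranded RNA, had folds of 6.40, 11.3, 7.39 and 11.1 in WT replicates 1 and 2 and TKO replicates 1 and 2, with no percentile below 97.3. Pkp4, a plakophilin gene, had folds of 5.75, 8.56, 6.47 and 8.40 and no percentile below 95.6. Zfp473 had folds of 6.06, 6.68, 7.27 and 7.88. For Pxylp1 the values were 6.32, 5.95, 5.99 and 9.28. All 4 regions lie inside introns, at 32400, 13140, 5313 and 1854 bp from the nearest start, in that order.

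Of the remaining 7 of the 12 strongest regions, 5 were promoters. Gpr155 had folds of 6.33, 5.95, 7.29 and 6.61, Dcaf11 of 5.85, 7.95, 6.06 and 6.34, and Cul4b of 5.88, 6.73, 6.50 and 6.22. Zfp868 had 7.42, 5.79, 6.67 and 6.68, and Sesn1, a stress-responsive regulator of mTORC1 signalling, had 5.09, 6.06, 6.23 and 6.85. The other two were intergenic. The region nearest to Gm14919 had folds of 10.2, 10.4, 6.01 and 6.36, and its summit word occurs 87 times in the genome. The region nearest to Mir195b, 314355 bp away, had folds of 7.62, 5.76, 9.28 and 6.41, and its word occurs 7 times.

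Regions far from any annotated start were a minority. Away from promoters 114 of 312 regions (36.5%) lay over 20 kb from a start. The 6 farthest were nearest to Mir195b (314355 bp), AC144861.1 (213173 bp), Gm38069 (184737 bp), Abca13 (171582 bp), Gm28590 (152273 bp) and Dlg2 (141615 bp), with Dlg2, Abca13 and Gm38069 regions in introns. Gm28590 had folds of 4.15, 7.36, 6.32 and 7.96, and Dlg2, the gene of a synaptic scaffold protein, of 4.38, 4.71, 5.51 and 6.32. The summit word was unique at Gm38069, Gm28590 and Dlg2 and occurred 102 times at Abca13.

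Tandem repeats were 17 of the regions, 16 of them among the 312 away from promoters (5.13%), against 1.70% of all peaks there. Of the broad regions away from promoters 4 of 47 were tandem repeats (8.51%). Over all locations the shares were 1.33% of the narrow and 1.30% of the broad regions. The periods of the 17 repeats ran from 6 to 84 bases with a median of 34. Of these 17, 11 were intronic, 4 intergenic, 1 exonic and 1 a promoter. Their median percentiles were 56.2 in WT replicate 1, 68.4 in WT replicate 2, 84.6 in TKO replicate 1 and 92.0 in TKO replicate 2. The folds of Kbtbd12 were 4.59, 5.24, 5.29 and 8.91 and those of Miga1 4.45, 6.32, 6.64 and 7.66, in the order used above. Both TKO percentiles exceeded both WT percentiles at 8 of the 17 repeats, and both WT percentiles exceeded both TKO percentiles at 1. Over all 1277 regions the shares in these directions were 11.2% and 17.1%, in that order. The lists differ in length, so these ranks show no change by themselves. Read placement in such repeats is uncertain where the unit recurs, and its part in these values was not tested.

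Repeated summit words were a smaller share than in the whole list. The summit word occurred more than 10 times in the genome at 79 regions (6.19%), against 17.7% of all peaks outside control peaks. This count takes in 9 of the 17 tandem repeats, whose word can recur within the locus. Away from promoters it did so at 73 of 312 regions (23.4%) against 33.4%, and at 40 regions it occurred over 1000 times. Of these 73 regions 52 fell into 5 groups of similar sequence. The largest group held 25 regions on 16 chromosomes with a median GC content of 66.7%, and its median percentiles were 92.1, 53.0, 93.0 and 40.6 in WT replicates 1 and 2 and TKO replicates 1 and 2. The next group held 21 regions on 14 chromosomes, with median percentiles of 58.3, 61.2, 66.9 and 52.4. The largest group thus ranked high in both replicate 1 libraries and near the middle in both replicate 2 libraries.

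Gene families were counted by starts within 1 kb of a region, and the counts are read against 2.31% of all annotated genes and 4.79% of protein-coding genes. Zinc finger genes named Zfp gave 32 of 394 (8.12%), led by Zfp868, Zfp438, Zfp511 and Zfp273. Zfp438 had folds of 5.36, 4.99, 4.61 and 6.95, Zfp511 of 6.24, 4.94, 5.19 and 5.70, and Zfp273 of 5.70, 4.62, 5.38 and 5.10. Splicing and RNA-binding protein genes gave 6 of 52 (11.5%), namely Hnrnpa1, Snrpa, Hnrnpc, Hnrnpd, Hnrnpa2b1 and Srsf1. Among genes with any WT replicate 1 peak the shares were closer to each other, with 12.7% for Zfp genes and 13.95% for the splicing genes against 10.7% of protein-coding genes.

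Other families of expressed housekeeping genes had a few members each. Translation factor symbols gave 6 of 69, which were Eif5a, Eif5b, Eif5, Eif4a1 and Eif1, and Eef2kmt, the methyltransferase of elongation factor 2. Symbols of ribosomal proteins gave 6 of 98. Rpl10, Rps25, Rps18 and Rpl41 encode ribosomal proteins, while Rps6kb1 and Rps6ka1 encode kinases. Rpl10 had folds of 4.56, 5.57, 4.53 and 5.91. Replication-dependent histone genes gave 6 of 67 at 4 regions, since Hist2h3c2 and Hist2h2aa2, and Hist2h3b and Hist2h2bb, share a region, beside Hist1h4h and Hist1h4b. Polymerase and general transcription genes gave 3 of 105 (Med19, Med16 and Polr2a), and proteasome genes gave Psmc2 out of 40. The shares were 8.70% for translation factors, 6.12% for ribosomal proteins, 8.96% for histones, 2.86% for polymerase and 2.5% for proteasome genes. Among genes with any WT replicate 1 peak they were 16.2%, 15%, 10.3%, 4.35% and 3.70% in that order, against 10.7% of protein-coding genes.

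Lists on R-loops, RNA modification and cell identity gave 1 or 2 regions each, or none. Of 29 genes of R-loop processing 2 (6.90%) had a region, among them Srsf1, with folds of 4.44, 4.40, 3.85 and 3.74 in WT replicates 1 and 2 and TKO replicates 1 and 2. Of 21 genes of the m6A pathway 2 (9.52%) had a region, the readers Hnrnpc, with 3.34, 5.34, 4.07 and 4.45, and Hnrnpa2b1, with 3.00, 4.98, 3.15 and 4.81. Among genes with any WT replicate 1 peak the R-loop and m6A shares were 10.5% and 10%, near the 10.7% of protein-coding genes. Pabpn1 was the 1 of 23 nuclear RNA decay genes, Hoxc13 the 1 of 120 developmental transcription factors, Stat3 the 1 of 33 pluripotency genes and Gas5 the 1 of 15 snoRNA hosts. Stat3 carries the LIF signal in these cells, and its folds were 4.10, 4.86, 3.78 and 4.59. No region lay at the 9 linker histone genes or the 17 markers of other lineages, of which 5 and 10 had some WT replicate 1 peak.

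Since every region is present in both genotypes, no genotype test was made, and ranks in lists of different lengths show no change by themselves. As a description, both TKO percentiles exceeded both WT percentiles at 143 regions (11.2%), and both WT percentiles exceeded both TKO percentiles at 219 (17.1%). Over the regions of any width in all 4 lists these shares were 10.7% and 17.0%, near those of the narrow regions. The widest gaps with TKO above WT were at an intron nearest to Gm16103 (folds 3.15, 3.82, 5.60 and 6.48 in WT replicates 1 and 2 and TKO replicates 1 and 2), at Gm48164, at Pcgf3, a Polycomb ring finger gene (3.52, 3.36, 4.91 and 6.68), and at Sh3d21. The widest with WT above TKO were at Fam193a (5.11, 5.35, 3.12 and 4.10), Frat2, Tns4 and Pcna, the replication clamp (5.13, 5.77, 3.18 and 4.34). The Gm16103 region is a tandem repeat, with a match of 97.9% at a period of 61 bases. Its summits spread over 907 bp, and its peaks were 415 and 288 bp wide in WT and 1267 and 1017 bp in TKO. The summit word occurs 11 times in the genome there and 6 times at Gm48164, and its part in these gaps was not tested.

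The cheRNA table lists RNA bound to chromatin that changed between the genotypes, so it is a measurement the choice of regions did not use. The authors' deposited table holds 5723 transcripts past a 2-fold difference, without p-values or levels for single samples. Its values are read here as TKO over WT, with the deposited sign turned: Hist1h1d (5.02), Hist1h1e (4.83) and Hist1h1c (3.61), deleted in TKO, are positive in the authors' deposited table, from which the direction is inferred. A transcript higher in TKO overlapped 81 regions (6.34%, interval 5.07 to 7.82), against 5.14% of all WT replicate 1 peaks outside control peaks. Where 50% of the peak had to be covered in every list the share was 4.68% of 278 regions. With −log10 q of at least 5 in all 4 lists it was 8.38% of 346 regions. The interval of the main share includes the 5.14% of all peaks, so no difference is read from the higher transcripts. A transcript lower in TKO overlapped 50 regions (3.92%, interval 2.92 to 5.13), against 6.06%. At promoters the shares were 6.11% against 6.29% for higher and 3.83% against 7.28% for lower transcripts. Most regions, 1146 of 1277 (89.7%), met no listed transcript, and no region met both kinds.

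The overlapping transcripts were of different classes by direction. Of the authors' deposited table, a total of 140 transcripts overlapped a region, 86 higher and 54 lower in TKO. Bidirectional transcripts, which start at a promoter and run away from the gene, were higher in 18 of 19 cases, and the table as a whole has 85.4% of that class higher. Transcripts on the 5′ side of a gene were higher in 18 of 21 cases (66.4% in the whole table), intergenic ones in 21 of 29 (74.0%) and antisense ones in 3 of 4 (86.6%). Gene transcripts were higher in 26 of 67 cases (45.0%). The direction thus followed the class, as it does in the table at large.

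With the sign of the authors' deposited table turned, the transcripts most increased in TKO were BiDi-Pgk1 (log2 6.85), 5prev-Idh2 (3.71), 5prev-Peli3 (3.56), BiDi-Chfr (3.52) and 5prev-D630039A03Rik (3.50). On the same turned scale of the authors' deposited table, the most decreased were Pknox2 (-3.28), Rcan2 (-2.76), Pnp2 (-2.58), Nos3 (-2.22) and 5prev-Iqsec1 (-2.20). BiDi-Pgk1 runs on the minus strand at chrX:106186728-106187234 (mm10), under the region of the promoter of Pgk1, which encodes the glycolytic enzyme phosphoglycerate kinase. Its fold was 4.47 and 5.28 in WT replicates 1 and 2 and 10.5 and 9.87 in TKO replicates 1 and 2, which placed it at percentiles 77.7 and 83.7 of the WT lists and 99.5 and 97.0 of the TKO lists. As background, the Pgk1 promoter drives many drug-selection cassettes used in gene targeting, and the labels do not say whether the H1-TKO cells carry one. The part of such a copy in the MapR and cheRNA values at this region was not tested. At Pnp2, whose promoter region overlaps the listed gene transcript, the folds were 4.56, 4.21, 5.38 and 5.05, in the same order. The percentiles were 79.6, 44.2, 90.9 and 65.9, so TKO replicate 2 ranked below WT replicate 1. The transcript's value from the authors' deposited table, with its sign turned, is -2.58.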

How the data were processed

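MapR was done on cells bound to concanavalin A beads, per the labels' protocols, with peaks for 6 libraries deposited as separate lists. The submitters' processing notes name BWA, MACS2 and mm10, with neither versions nor settings (not given in the sources used here). Each deposited peak has a fold enrichment (a ratio), −log10 p and q values, a score and a summit, all by the authors. The cheRNA values are log2 differences from the authors' deposited table.

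Lists were intersected and annotated in Python 3.11.15 with pandas 2.3.3, and checked with bedtools 2.31.1 and on simulated data. Locations used GENCODE M21, and small RNA classes and sequences RefSeq, both on GRCm38 (mm10). Windows were 300 bp around the WT replicate 1 summit. Summit words of 31 bases were counted over the whole genome on both strands. No per-sample column was left unused, and depth is unknown.

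The members and lists were chosen with earlier results of these data known. Named regions are the 12 with the highest lowest percentile, 5 on either side of the width limit, the 5 narrowest, the 6 farthest from a start, 4 at either end of GC content, 5 at either end of cheRNA change, and members of gene lists (the 4 strongest of lists with more than 5, with others named after their values were seen). Chosen after seeing values were the tandem repeat measure, small RNA classes and octamer, repeat groups, summit words, skew, library offsets, cAMP response elements and the regions named for rank gaps between genotypes. No test was made. Regions are not replicates, and members of 1 cluster or repeat family share sequence. Some items that this rule names are not reported here.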

Additional observations from a re-analysis of the deposited data

How the results depend on the processing

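No paired analysis was possible because no test was made: the regions are fixed by presence in all 4 libraries. Over 13 results and 84 alternatives, 51 values stayed within the interval or the 1.5-fold range and 33 moved; the cause was not tested except where fewer or more lists are asked for by construction. Asking that 50% of the WT replicate 1 peak be covered left 278 regions, of which 71.9% were at promoters and 16.2% intergenic, with a median GC content of 62.0%, G-quadruplex motifs in 25.2% and higher cheRNA in 4.68%. Peaks with −log10 q of at least 5 in all 4 lists gave 346 regions, 80.3% at promoters, 10.98% intergenic and 8.38% with higher cheRNA. A width limit of 750 bp gave 773 regions, 69.3% at promoters and 16.9% intergenic, with a GC content of 62.3%. Leaving out 1 library at a time gave 1432 to 2818 regions, with 2818 without WT replicate 2 and 2473 without TKO replicate 2. Promoter shares then ran from 64.5% to 75.3%, intergenic shares from 14.3% to 20.7%, GC from 63.0% to 63.7%, G-quadruplex motifs from 24.6% to 30.7%, and cheRNA overlaps from 5.50% to 7.52% (higher) and 3.13% to 4.81% (lower). Regions whose summit word occurs once were at promoters in 82.8% and intergenic in 9.24%. Promoters were 77.9% within 2 kb and 71.7% with protein-coding starts only. GC content was 62.4% over 500 bp and 62.1% over whole peaks. G-quadruplex motifs were in 19.7% of 200 bp windows, 40.3% of 500 bp windows and 46.8% with loops of 1 to 12 bases. Within 5 kb, listed cheRNA lay at 8.30% (higher) and 5.40% (lower) of regions, against 7.14% and 7.46% of all peaks. Median summit distances changed by a few bp at most when the peak with the highest fold was used. The alternative of summit words and those of the peak rules for G-quadruplex motifs were chosen after seeing the data.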

Other observations

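The regions were unevenly spread over chromosomes. Chromosome 11 held 136 of them (10.7%), against 6.62% of WT replicate 1 and 8.48% of TKO replicate 1 peaks. Chromosome 7 held 119 (9.32% against 6.54% and 6.21%) and chromosome 5 held 94 (7.36% against 5.91% and 6.17%). The X chromosome held 19 and the Y chromosome 5.

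Of the 1277 regions 243 (19.0%) lay within 50 kb of another, and 13 clusters held at least 3. The same counts were not made for other sets of peaks, so they only describe the regions. The largest, on chromosome 7, held 5 regions from Blvrb to Pld3 in 106047 bp and includes the transcription regulators Sertad3 and Sertad1. On chromosome 11 the 4 U3 genes lay in 28884 bp, 4 regions at U2 genes (Rnu2-10, Gm23971, Gm24950 and the locus beside Rdm1) in 31363 bp, and 4 regions from Kat7, a histone acetyltransferase gene, to Spop in 105409 bp. Another cluster of 4 regions lay on the Y chromosome in 65272 bp around Gm47283. Mnt, the gene of a MAX-binding repressor, had 3 regions within 7798 bp.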
